A study of Oryza sativa with 4 samples.

Results

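The miRNAs of the shoot were compared between NaCl-treated and control seedlings of rice (Oryza sativa cv. Pokkali, a salt-tolerant cultivar) to see which of them differ in abundance after exposure to salt. Both groups were hydroponically raised seedlings of 9 days, and the aerial part was taken. The treated seedlings received 1.5% NaCl through the root for 9 h, and the control seedlings received none. Each group was a single small RNA library (CS for the control, TS for the treated shoot). How many seedlings went into a library is not stated in the labels or the study's methods. The other 2 of the 4 libraries are control root (CR) and NaCl-treated root (TR). The members were all distinct mature sequences listed in CS or TS, 568 of the 783 listed over the whole series. Of these, 353 were listed in CS and 311 in TS, and 96 were listed in both, 32 of them conserved (with a miRBase family name) and 64 predicted (without one). Since the lists hold small RNAs only, the shoot label could not be checked against marker genes.

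Plant miRNAs are cut from hairpin precursors by DICER-LIKE 1. The duplex that leaves the hairpin has a guide strand, which enters an ARGONAUTE protein, and a partner strand named miRNA*, which is usually lost. The guide pairs almost perfectly with its target mRNA, leading to cleavage or to less translation. Many conserved families act on transcription factors of growth and hormone response, and others on copper proteins, nutrient transport or the small RNA machinery itself. Several of these families are known to respond to salt in other plants and cultivars.

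The lists hold, for each hairpin, the read count of the mature sequence and its RPM, the reads per 1000000 of the reads used for prediction. A sequence entered them if it had 2 or more reads and passed the hairpin prediction, so an unlisted sequence is not a count of 0. One read weighed 0.0762 RPM (CS) or 0.102 RPM (TS). The ratio of TS to CS was computed for each sequence listed in both libraries. It was given the exact conditional 95% interval of Clopper and Pearson, and a sequence was called higher or lower where it was 2-fold or more from the other library (a ratio of 2 or above, or of 0.5 or below) with an interval that left out 1. The intervals cover counting error only, and with 1 library a side there is no replicate check, so that each ratio compares the libraries and not the conditions. Fewer cells of a type and less RNA per cell cannot be told apart in such samples. Prediction used 53.6% of the raw reads of CS and 44.3% of those of TS, and a ratio on raw reads is 0.827 times the ratio on RPM. Calls that change with this choice are given on both scales.

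The sequences on which the results turn are shown first, 5′ to 3′ as DNA letters, with the seed (bases 2 to 8) in capitals. A Roman number ranks the listed sequences of a family by their reads in CS, and a letter names a predicted sequence that has no name in the study. The first set holds the families of which sequences that differ by a few bases or by an end did not move alike.
miR156-I: tTGACAGAagagagtgagcac
miR156-II: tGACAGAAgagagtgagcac
miR166-I: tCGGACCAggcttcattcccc
miR166-II: tCTCGGACcaggcttcattcc
miR166-III: tCGGACCAggcttcaatccct
miR166-IV: tCGGACCAggcttcattccc
pred-A: tCTCGGATcaggcttcattcc
miR167-I: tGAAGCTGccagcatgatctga
miR167-II: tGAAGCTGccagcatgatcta
miR396-I: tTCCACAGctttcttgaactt
miR396-II: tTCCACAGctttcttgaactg
miR319: tTGGACTGaagggtgctccct
pred-D: cTTGGACTgaagggtgctccct
The next set holds the conserved sequences farthest from a ratio of 1, and the miR160 sequences, which moved alike.
miR169-I: tAGCCAAGgatgacttgcct
miR398: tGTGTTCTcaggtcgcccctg
miR160-I: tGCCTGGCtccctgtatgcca
miR160-II: tGCCTGGCtccctgtatgccg
miR160-III: tGCCTGGCtccctgaatgcca
The last set holds the other predicted sequences that were called higher or lower.
osa-miR12475: aCCGAGGCgcgtcaattgctg
osa-miR12477: tTGAGTGCagcgttgatgaacc
pred-E: aTAGTTTTttctaccacact
pred-J: tTAAAAACcgtagaattgctc
pred-L: tTTTCCGCgtctaactttgatc
pred-M: cATATAATcaaggaatggtata
pred-P: cTCGCCGGggctgcgtgccgcc
pred-R: tCTTGTTTggatctcgagcaca
pred-S: cGAGAAGTacctcgccggct

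Sequences with the largest share of the listed reads differed between the libraries. In CS the predicted osa-miR12474 had 47.7% of the listed reads and the miR166 family 31.5%. In TS the first place was taken by miR168 with 32.1%, followed by miR166 with 24.4% and miR1425 with 21.5%. The miR168 reads are those of its 3p arm, and miR166 acts on HD-ZIP III transcription factors, which set leaf polarity. The CS list alone held osa-miR12474, and the TS list alone held miR168. Without osa-miR12474 the predicted sequences summed to 255 RPM in CS against 289 RPM in TS, a ratio of 1.13 (1.08 to 1.19) that lies below 1 on raw reads (0.937, 0.891 to 0.986).

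**Figure D1:**
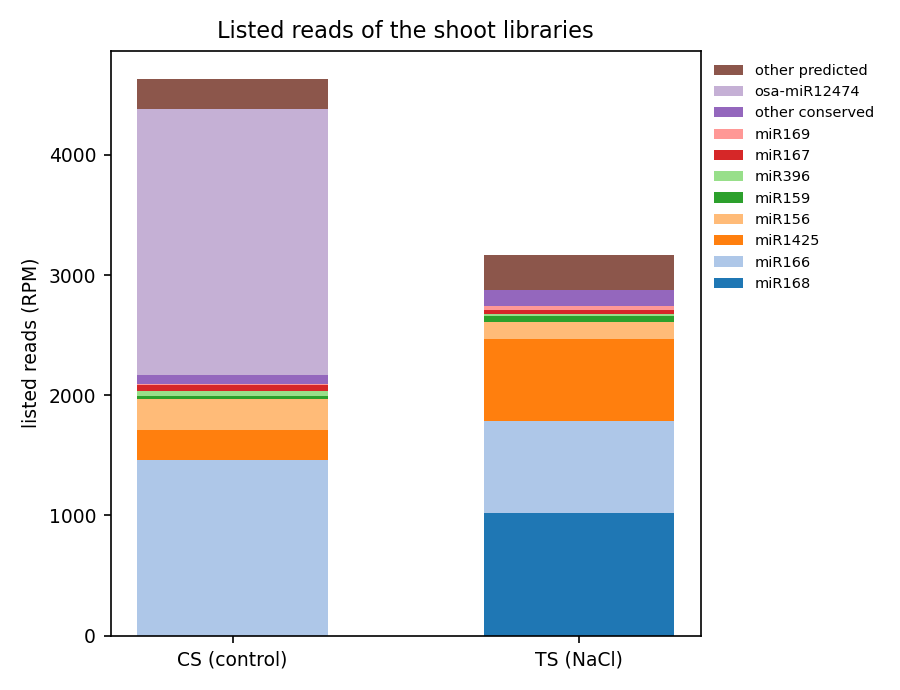
Listed reads of the control (CS) and treated (TS) libraries on the RPM scale, 1 library each, stacked by family or sequence. The miR168 block of 1017 RPM is in TS only, the osa-miR12474 block of 2212 RPM in CS only, and the miR166 block is 1459 RPM in CS and 772 RPM in TS.

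Calls fell on 19 of the 32 shared conserved sequences: TS exceeded CS in 15, and CS exceeded TS in 4. Over all 96 shared sequences, 22.9% were called higher and 7.29% lower, so the conserved sequences held most of the calls. On raw reads 12 conserved sequences were called higher and 7 lower, against 18.8% and 11.5% of all shared sequences. The median log2 ratio was 0.96 over the conserved sequences and 0.43 over all shared ones. The split followed abundance: among the 16 conserved sequences with the lower mean RPM of both libraries, 10 were called higher and 1 lower, whereas among the 16 with the higher mean RPM 5 were called higher and 3 lower. On raw reads the less abundant ones gave 8 higher and 1 lower, and the more abundant ones 4 higher and 6 lower. A rare sequence below the listing limit in 1 library could not be called, and this limit lies higher in RPM in TS. The 5 conserved sequences listed in CS only and the 7 in TS only are thus outside these counts. How far this shaped the split was not tested.

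**Figure D2:**
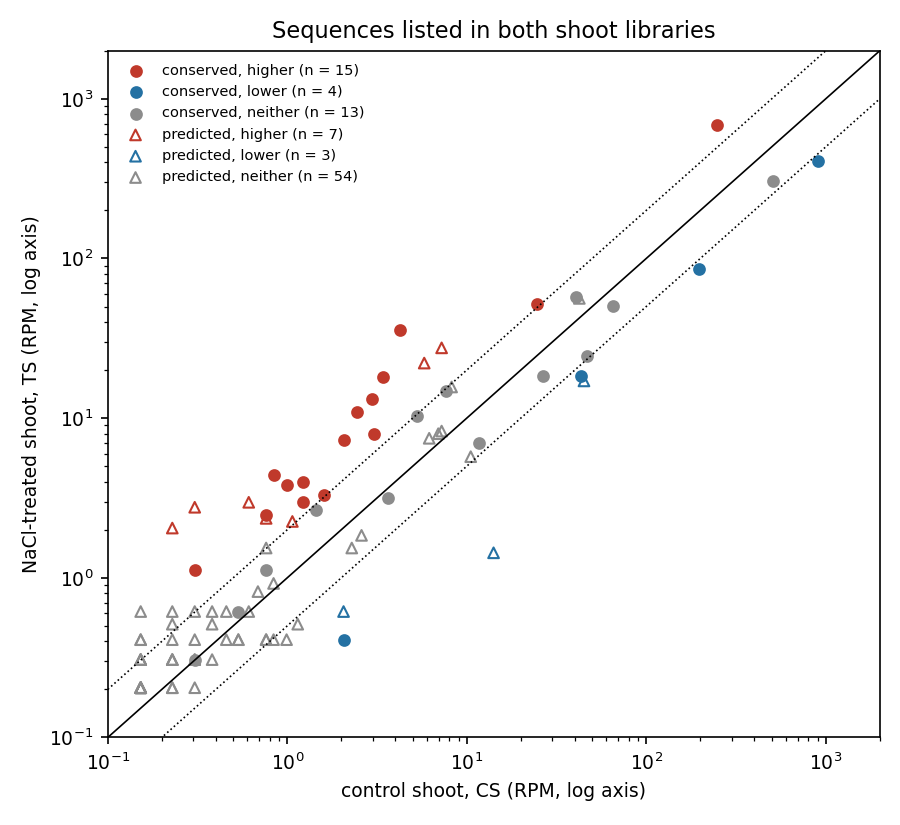
RPM of each of the 96 shared sequences in CS (horizontal) and TS (vertical), both axes logarithmic, with filled circles for conserved and open triangles for predicted sequences, a solid line at a ratio of 1 and dotted lines at 2 and 0.5. The 15 conserved sequences called higher lie mostly at a few RPM in CS, and the most abundant one called lower is miR166-I at 904 RPM in CS.

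Families that act on regulators of growth and phase change held 18 of the shared conserved sequences, of which 9 were called higher, 3 lower and 6 neither (7, 4 and 7 on raw reads). Over all 32 shared conserved sequences, 15 were called higher and 4 lower (12 and 7 on raw reads), so the role did not stand apart. miR169-I, of the family that acts on NF-YA transcription factors, had 56 reads in CS and 348 in TS. This was the largest ratio among the conserved sequences, 8.35 (95% interval 6.28 to 11.3), and 6.90 on raw reads. miR169-II went from 4 reads in CS to 11 in TS, a ratio of 3.69 whose call is lost on raw reads (3.06, interval 0.905 to 13.2). miR171, which acts on GRAS transcription factors, had 45 and 176 reads for miR171-I and 11 and 43 for miR171-II, and both sequences gave a ratio of 5.25. miR394, which acts on the mRNA of an F-box protein of leaf development, went from 32 to 106 reads, at a ratio of 4.45 (2.97 to 6.83).

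Lower counts stood behind the other growth families that were called higher. miR319, which acts on TCP transcription factors, had 16 reads in CS and 39 in TS (ratio 3.27), and miR172, which acts on AP2 transcription factors of the juvenile to adult transition, had 10 and 24 (ratio 3.22). miR164, which acts on NAC transcription factors, had 16 and 29 reads (ratio 2.43, interval 1.28 to 4.80). miR159, which acts on MYB mRNAs, was better covered, with 325 and 506 reads. Its ratio of 2.09 (1.82 to 2.41) was just above the threshold on RPM and below it on raw reads (1.73). In the study's Northern blots miR159a fell with NaCl in Pokkali shoot, the opposite direction. miR529, which shares SPL targets with miR156, had 101 and 145 reads and missed the threshold at 1.93.

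The sequences called lower were the most abundant ones of their families. miR156-I, whose family acts on SPL transcription factors and keeps plants juvenile, went from 2566 reads in CS to 843 in TS (ratio 0.441, 0.408 to 0.477). miR166-I went from 11858 to 3976 reads (0.450, 0.434 to 0.467), and miR396-I, of the family that restrains GRF transcription factors of cell proliferation, from 571 to 179 (0.421, 0.354 to 0.499). These were 3 of the 4 conserved sequences called lower, and each has its call on raw reads too. miR166-II had 6698 and 2973 reads, a ratio of 0.596 that misses the rule on RPM and meets it on raw reads (0.493).

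Among the families of the auxin pathway, 5 of the 7 shared sequences were called higher, none was called lower and 2 were neither. On raw reads 4 were called higher and 1 lower. The counts over all 32 shared conserved sequences were 15 higher and 4 lower, or 12 and 7 on raw reads. miR160, which acts on repressing auxin response factors, was higher in all 3 of its sequences, with 39 and 128 reads for miR160-I, 27 and 71 for miR160-II, and 13 and 37 for miR160-III. Their ratios were 4.41, 3.53 and 3.82, and the intervals overlapped widely. miR390, which starts the production of the TAS3 siRNAs against auxin response factors, went from 40 to 78 reads (ratio 2.62, 1.77 to 3.94). miR393, which acts on the TIR1/AFB auxin receptors, went from 69 to 101 reads and just missed the threshold at 1.97. miR167, which acts on activating auxin response factors, was divided. miR167-I had 616 and 239 reads, a ratio of 0.521 that misses the rule on RPM and meets it on raw reads (0.431). miR167-II had 21 and 32 reads, a ratio of 2.05 that meets it on RPM and not on raw reads (1.69).

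The remaining roles had few members. miR398, which acts on Cu/Zn superoxide dismutase mRNA, had 27 reads in CS and 4 in TS, the lowest ratio of the conserved sequences at 0.199 (0.0506 to 0.571). miR528, also of the copper group, had 12 reads in TS and no entry in CS. miR827, which acts on a phosphate transport gene family in rice, had 153 and 68 reads (ratio 0.597, called lower on raw reads at 0.494). miR162, which acts on DCL1 mRNA, had 349 and 180 reads for miR162-I, a ratio of 0.693 that meets the rule on neither scale. Among the families restricted to grasses or rice, miR1425, which acts on pentatricopeptide repeat genes, went from 3271 to 6653 reads at a ratio of 2.73 (2.62 to 2.85), and it was the most abundant conserved sequence that was called higher. miR5827 (19 and 26 reads) and miR2864 (4 and 3 reads) were neither.

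**Figure D3:**
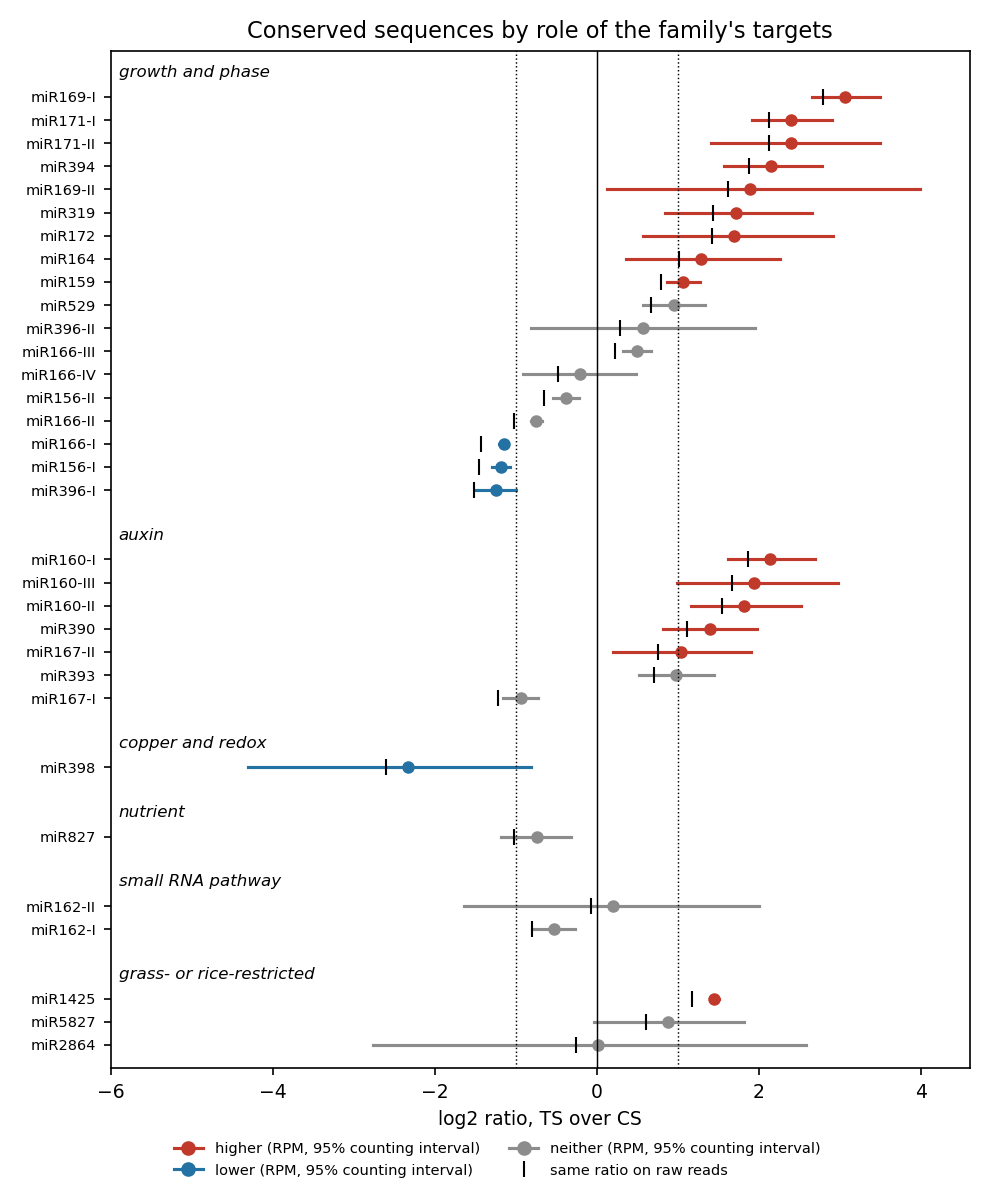
Log2 ratio of TS over CS for the 32 conserved sequences listed in both libraries, grouped by the role of the family's targets, with points for RPM, bars for the 95% counting interval, ticks for the ratio on raw reads and dotted lines at the 2-fold threshold. miR169-I lies farthest to the right at 3.06 and miR398 farthest to the left at -2.33.

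Summed over the listed sequences of a family, 21 of the 32 families had reads in both libraries. Of these, 10 (47.6%) were called higher and 2 (9.52%), miR396 and miR398, lower. On raw reads 9 (42.9%) were called higher and 6 (28.6%) lower, the latter now with miR156, miR166, miR167 and miR827. The sum for miR166 was 19137 reads in CS against 7541 in TS, giving a ratio of 0.529, which lies just above the threshold on RPM and below it on raw reads (0.438). A family listed in a single library was given no ratio. miR2275 (3 reads), miR5513 (2), miR1427 (3), miR1320 (5) and miR2118 (2) were listed in CS only. miR168 (9929), miR528 (12), miR535 (11), miR2055 (4), miR1859 (3) and miR1846 (2) were listed in TS only, as was miR396-III (12 reads) of a family with other sequences in both. At the miR2055 locus CS listed a predicted sequence of 4 reads whose ends are shifted by 2 nt. miR2118 and miR2275 start the phased siRNAs of grass anthers, and their few reads in shoot lie close to the limit of the lists.

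A comparison of sequences within a family needs no library total, since any scaling cancels. The ratio of the sequences' ratios was therefore taken for all 15 pairs in the 8 families with at least 2 shared sequences, and its interval excluded 1 in 7 pairs, from the miR156, miR166, miR167 and miR396 families. miR166-III differs from miR166-I by T16A and C21T, counted from the 5′ end with the base of miR166-I first, and has the same seed. It had 533 reads in CS and 561 in TS, so relative to miR166-I it was 3.14-fold higher in TS (2.77 to 3.56). miR166-III was listed at a locus on chromosome 9 (16951903 to 16951923, + strand, IRGSP-1.0) and matched the genome at 2 places, whereas miR166-I matched it at 6. miR396-II differs from miR396-I by T21G and was 3.50-fold higher relative to it (1.33 to 9.36), although on only 10 and 11 reads. miR167-II, which lacks a base near the 3′ end of miR167-I, was 3.92-fold higher relative to it (2.14 to 7.31). In each of these families the less abundant sequence was the one with the higher ratio.

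Sequences that differ only by an end were also unequal. miR156-II is miR156-I without its first base, which moves the seed by 1 position. It went from 860 to 491 reads and was 1.74-fold higher relative to miR156-I (1.51 to 1.99). It matched the genome at 10 places against 4 for miR156-I. miR166-IV is miR166-I without its last base and was 1.93-fold higher relative to it (1.18 to 3.09). In contrast, the 3 pairs of miR160 sequences, which differ by T15A, A21G or both, had ratios of 0.802 to 1.08 between them, and the miR171 pair a ratio of 0.999, all with intervals that include 1.

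A pair of predicted sequences belongs beside these families by sequence. pred-A, at chromosome 3 (25295065 to 25295085, + strand), differs from miR166-II by C8T, the last base of the seed, and had 590 reads in CS and 167 in TS. Its ratio of 0.380 (0.318 to 0.452) was called lower and was 0.638 times that of miR166-II (0.531 to 0.763). pred-D, at chromosome 1 (6677579 to 6677600, - strand), is miR319 with 1 more base at the 5′ end, and it was listed at another locus than miR319. It had 81 and 73 reads, a ratio of 1.21, which is 0.371 times that of miR319 (0.178 to 0.747).

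The miRNA* reads are a second readout from the same hairpins. They were counted at loci listed in both libraries, each miRNA* sequence a single time per mature sequence, and were recorded in at least 1 library for 36 of the shared sequences and in both for 19, of which 14 were conserved. For miR156-I the miRNA* had 64 reads in CS and 99 in TS, while the mature sequence had 2566 and 843. This is 2.49 miRNA* reads for each 100 mature reads in CS and 11.7 in TS, an odds ratio of 4.71 (3.37 to 6.61) that does not depend on the library totals. The partner strand was thus higher in TS on RPM (ratio 2.08, 1.50 to 2.89) and on raw reads (1.72, 1.24 to 2.39), although the guide strand was called lower.

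In 2 further sequences with a mature ratio below 1 the miRNA* reads also rose relative to the mature reads. miR166-I, called lower, had 60 miRNA* reads in CS and 76 in TS, or 0.506 and 1.91 for each 100 mature reads (odds ratio 3.78, 2.65 to 5.40). miR167-I, called lower on raw reads but not on RPM, had 96 and 108, or 15.6 and 45.2 for each 100 (odds ratio 2.90, 2.09 to 4.01). For the miRNA* taken alone, the interval of the ratio of TS to CS excluded 1 on RPM and included it on raw reads, at 1.41 (0.990 to 2.01) for miR166-I and 1.25 (0.941 to 1.66) for miR167-I. miR169-I went the other way, with 31 and 64 miRNA* reads beside 56 and 348 mature reads. This is 55.4 and 18.4 for each 100 (odds ratio 0.333, 0.194 to 0.578), so that both strands rose in number and the guide strand by more. The interval excluded 1 for these 4 of the 19 sequences only, and the other 15 had at most 9 miRNA* reads in either library. Over the 14 conserved sequences the miRNA* reads summed to 279 in CS and 390 in TS, an RPM ratio of 1.88 (1.61 to 2.20), against 0.902 (0.882 to 0.921) for their mature reads. All 14 had an RPM ratio above 1 for the miRNA*, and 9 of them for the mature sequence. The count of 14 depends on the scale. miR160-III, miR166-III and miR171-II had 1 miRNA* read in each library and miR171-I had 4 in each. Their ratio of 1.34 comes from the library totals alone.

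**Figure D4:**
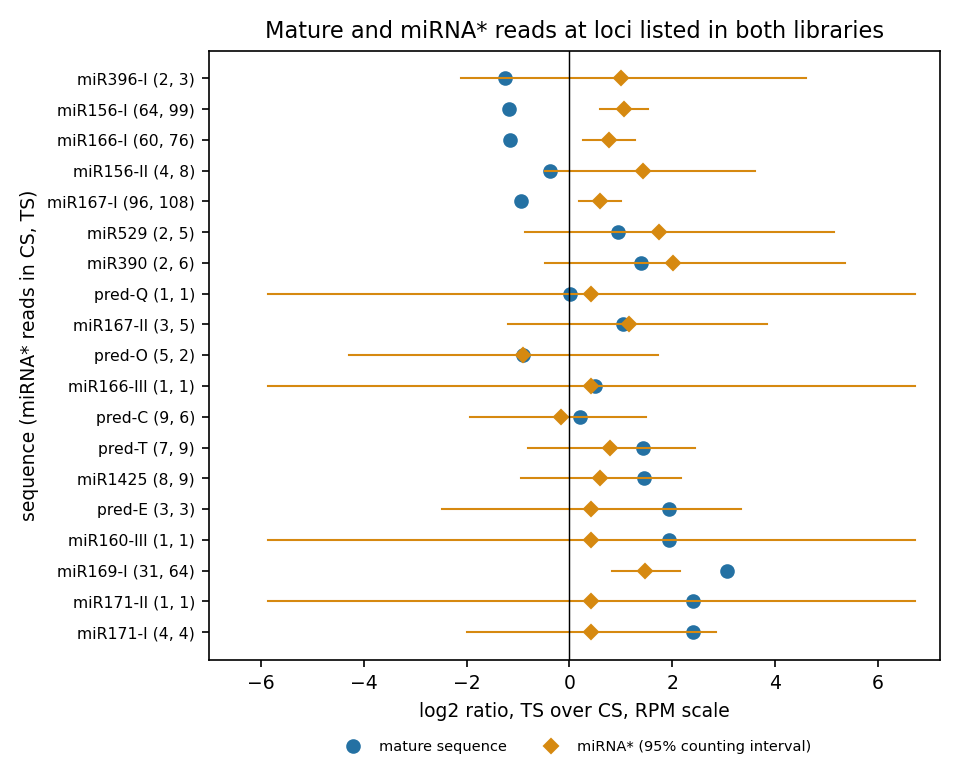
Log2 ratio of TS over CS on the RPM scale for the mature sequence (circles) and its miRNA* (diamonds, with 95% counting intervals) of the 19 shared sequences with miRNA* reads in both libraries, with the miRNA* reads in CS and TS in parentheses. For miR156-I, miR166-I and miR167-I the circles lie left of 0 and the diamonds right of it, and for miR169-I both lie to the right.

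A mature sequence is shared by its loci, but the miRNA* often tells them apart. The miR167-I locus on chromosome 12 (start 25480628, + strand) had 83 miRNA* reads in CS and 74 in TS, an RPM ratio of 1.20 (0.863 to 1.66). The locus on chromosome 7 (start 4166373, - strand) had 13 and 30, a ratio of 3.10 (1.57 to 6.47), so most of the gain in miR167-I miRNA* lay there. For miR156-I the locus on chromosome 2 (start 4512974) had 32 and 42 miRNA* reads, and that on chromosome 6 (start 26554835) had 32 and 57, at ratios of 1.76 and 2.39 with overlapping intervals. The miR166-I locus with the most miRNA* reads, on chromosome 3 (start 30392798), had 35 and 34, whereas the locus on chromosome 2 (start 26130149) had 8 and 16. In root, miR156-I had 22 miRNA* reads in each library beside 446 mature reads in CR and 330 in TR. Its odds ratio there was 1.35 (0.700 to 2.61), and that of shoot was higher by a factor of 3.48 (Wald 95% interval 1.75 to 6.94). For miR169-I, with 2 and 5 miRNA* reads in root beside 11 and 21 mature reads, the corresponding factor was 0.254, with an interval that includes 1 (0.0392 to 1.64). For miR166-I the root libraries held 0 (CR) and 2 (TR) miRNA* reads, and no factor was formed.

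The hairpin of miR168 is shown because its listed sequence is the 3p arm and not the arm for which the family is known. It lies at chromosome 2 (1553143 to 1553247, - strand, IRGSP-1.0) and folds with -71 kcal/mol, and the capitals mark first the most read miRNA* and then the listed sequence.
miR168: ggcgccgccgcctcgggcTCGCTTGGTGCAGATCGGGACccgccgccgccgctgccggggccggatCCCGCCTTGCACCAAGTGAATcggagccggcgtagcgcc
In TS the 3p arm had 9929 reads and the miRNA* entries 1928 reads of 8 sequences, of which 1339 were the 5p arm in capitals. The miRNA* were 16.3% of the reads of this hairpin (exact binomial 95% interval 15.6% to 16.9%). The 5p arm is the AGO1-targeting strand in plants, and as a mature sequence it was not among the entries of either shoot library. miR168 was not among the entries of CS in any form, so no ratio was formed.

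The hairpin of osa-miR12474 is shown for the opposite case, a sequence with 29014 reads in CS and no entry in TS. It was listed at 2 loci of CS and matched the genome at 6 places, and the hairpin is that at chromosome 2 (28716875 to 28717001, + strand), folding with -56.3 kcal/mol, with the most read miRNA* and then the mature sequence in capitals.
osa-miR12474: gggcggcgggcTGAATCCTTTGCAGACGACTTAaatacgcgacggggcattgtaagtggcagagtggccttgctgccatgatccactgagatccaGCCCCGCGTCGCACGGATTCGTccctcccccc
Its miRNA* had 55 reads of 12 sequences in CS, 0.189% of the reads of the hairpin (0.143% to 0.246%), and the most read of them had 13. The other listed locus was at chromosome 9 (1459 to 1480, + strand). Whether these reads come from a miRNA precursor or from another kind of RNA was not tested.

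The 64 shared predicted sequences gave 7 calls higher in TS and 3 lower, and 54 had none. The call is hard to reach at their depth, since only 15 of the 64 had at least 10 reads in both libraries. Of those 15, 4 were called higher and 2 lower. osa-miR12475 went from 95 reads to 269 at a ratio of 3.80 (2.9995 to 4.86), and pred-E had 76 and 216, a ratio of 3.82 (2.93 to 5.03). These were the best covered predicted sequences called higher, each from several genomic matches, 4 and 3. pred-M (10 and 23 reads, ratio 3.09) and pred-L (14 and 22 reads, ratio 2.11) were also called higher, the second on RPM but not on raw reads (1.75).

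osa-miR12477 had the lowest ratio of all 96 shared sequences. Its reads numbered 185 in CS against 14 in TS, which gives a ratio of 0.102 (0.0545 to 0.175), and 0.0841 on raw reads. The direction is opposite to the study's Northern blots, in which osa-miR12477 rose with NaCl in Pokkali shoot. It is also opposite to the study's in situ PCR, in which Pokkali leaf sections stained more for osa-miR12477 after NaCl. By RT-qPCR the study found less mRNA of its target L-ascorbate oxidase in Pokkali after NaCl. Of the other study-named sequences in both lists, osa-miR12475 was called higher and 4 were called neither higher nor lower on RPM. The latter were osa-miR12476 (138 and 56 reads, ratio 0.545, called lower on raw reads at 0.451), osa-miR12478 (556 and 549, ratio 1.33), osa-miR12479 (30 and 15, ratio 0.672) and osa-miR12481 (91 and 78, ratio 1.15). The study's Northern blots detected osa-miR12475, osa-miR12476 and osa-miR12479 in root only, although both shoot lists hold them. In those blots osa-miR12478 and osa-miR12481 fell with NaCl in Pokkali shoot. osa-miR12474, listed in CS only, fell there too.

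The remaining calls had fewer than 10 reads in a library, and these sequences were singled out after their values were seen. pred-R went from 4 to 27 reads (ratio 9.07, 3.16 to 35.7) and pred-S from 3 to 20 (8.96, 2.66 to 47.1), so the ratios are large but hardly bounded above. pred-P, listed at 7 loci, went from 8 to 29 reads (4.87, 2.17 to 12.3). pred-J went the other way, from 27 to 6 reads (0.299, 0.101 to 0.738). The best covered predicted sequences that were neither, besides the named ones, were pred-B (108 and 153 reads, ratio 1.90), pred-C (95 and 81, ratio 1.15), pred-D (81 and 73, ratio 1.21), pred-I (34 and 18, ratio 0.711) and pred-N (10 and 15, ratio 2.01, interval 0.847 to 5.02). Among the predicted sequences, pred-C had 9 miRNA* reads in CS and 6 in TS, and pred-T had more miRNA* than mature reads in both libraries, 7 beside 3 in CS and 9 beside 6 in TS. The others with miRNA* reads in both libraries were pred-E (3 and 3), pred-O (5 and 2) and pred-Q (1 and 1).

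Most predicted sequences were listed in a single library, 252 in CS only and 208 in TS only, and most of these were rare. Of the CS-only sequences 56.3% had 2 reads, and of the TS-only sequences 59.6%, against 26.6% of the shared predicted sequences in CS. The most abundant after osa-miR12474 were pred-F (41 reads), pred-G (37), pred-H (35) and pred-K (23) in CS, and pred-U (70), pred-V (38), pred-W (35), pred-X (22) and pred-Y (15) in TS. Being listed in 1 library did not always mean another locus. pred-F and pred-V, shown here because they are the same hairpin arm with another 5′ end, lie at chromosome 3 (7103456 to 7103477 and 7103456 to 7103476, - strand).
pred-F: aCTTTGGCctagactgagagcc
pred-V: cTTTGGCCtagactgagagcc
In all, 28 (11.1%) of the CS-only predicted sequences overlapped a mature locus listed in TS, and 26 (12.5%) of the TS-only ones a mature locus listed in CS. In 27 such pairs each sequence was listed in 1 of the libraries, and in 24 of these both ends lay within 2 nt of each other. The 5′ end, and so the seed, was the same in 13 of the 27. Counted by locus in this way, 92 predicted sequences of CS had a counterpart in TS, in place of 64.

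The predicted sequences listed only in TS differed in form from those listed only in CS. Sequences of 22 nt were 67.9% of the CS-only set (exact binomial 95% interval 61.7% to 73.6%) and 44.7% of the TS-only set (37.8% to 51.7%), and sequences of 21 nt were 25.8% and 38.0%. The first base was T in 78.2% (72.6% to 83.1%) of the CS-only and 51.4% (44.4% to 58.4%) of the TS-only sequences. A first base of U in the RNA is what AGO1 prefers, and 87.5% of the shared conserved sequences had it. The hairpin p-value was at the lowest value in the lists for 90.5% of the CS-only and 77.4% of the TS-only sequences. The median folding energy was -53.8 kcal/mol (quartiles -73.0 and -34.7) and -48.0 kcal/mol (-69.1 and -32.0), and the median G+C of the hairpin 35.4% and 39.8%. These sequences share a library, so the intervals describe the lists and carry no replicate error. The shares with miRNA* reads, 11.9% and 12.02%, were close, and so were those with a single genomic match, 75.8% and 80.8%.

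**Figure D5:**
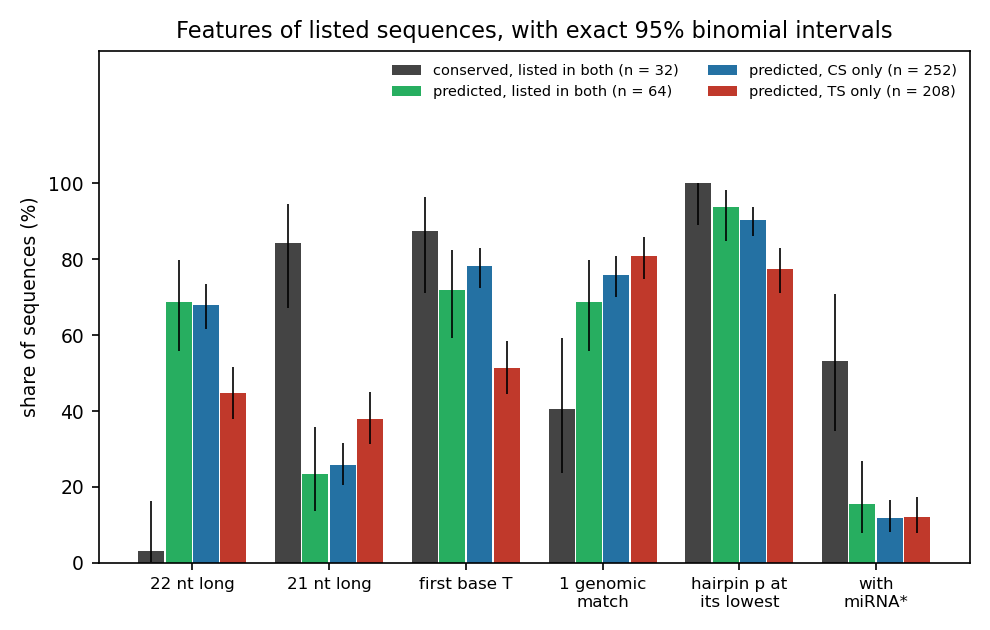
Share of sequences with each feature among conserved and predicted sequences listed in both shoot libraries and predicted sequences listed in CS only or TS only, with exact 95% binomial intervals over sequences. The TS-only set is lower than the CS-only set for 22 nt (44.7% against 67.9%) and for a first base of T (51.4% against 78.2%).

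The conserved and predicted sequences also differed from each other. Of the 32 shared conserved sequences, 84.4% were 21 nt long and 3.13% were 22 nt long, against 23.4% and 68.8% of the 64 shared predicted ones. miRNA* reads were recorded in CS for 53.1% of the former and 15.6% of the latter. The mature sequences also differed in depth, with a median of 42.5 and 4.5 reads in CS. The median G+C of the hairpin was 48.5% and 34.0%. A search of the mature sequences, on their own strand, for the letters TTTGAC or TTTGAT found them in 28.1% of the shared predicted, 18.7% of the CS-only and 13.5% of the TS-only sequences, and in none of the 32 conserved ones. Among all listed sequences the seed held by most was TCAGATT, in 9 predicted sequences, while the largest conserved groups were the 3 sequences of miR166 and the 3 of miR160 that share a seed.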

How the data were processed

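Small RNA of control and NaCl-treated shoot was sequenced on an Illumina platform, 1 library each. The authors trimmed the reads (cutadapt is among the tools named), removed other non-coding RNA, searched miRBase and predicted hairpins on the rice genome. Which tool predicted the hairpins is not given in the sources used here. Per the file headers, the deposited values are a read count per mature sequence, its RPM, the log2 of the RPM, the p-value of the fold and the G+C percent of the hairpin. A count is repeated at each locus and was taken a single time.

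Ratios, exact intervals and calls were computed with Python 3.11.15 (scipy 1.17.1, pandas 2.3.3, numpy 2.4.6), and TMM factors with edgeR 4.0.16. Odds ratios have exact conditional intervals. The call rule was tested on simulated data. Depth per library is given as the RPM of 1 read. The text names every conserved sequence or family of shoot, the study-named predicted sequences, the predicted ones with at least 10 reads in both libraries or with miRNA* reads in both, and the 5 most abundant listed in a single library. The members and lists were chosen with earlier results of these data known, and the within-family pairs, odds ratios, loci and motif after the data were seen. The other scalings divided by raw reads, trimmed reads, reads unaligned with NONCODE or listed reads. TMM factors and a median of ratios were tried too. The read totals for the first of these were copied from the table of reads in the study. No annotation of the files' genome build was used, so loci are given by position only.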

Additional observations from a re-analysis of the deposited data

Results flagged for a closer look

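All 4 libraries listed 29 of the shared sequences, and for 8 of these the ratio of TS to CS differed from the ratio of TR to CR by a counting interval excluding 1, on RPM and on raw reads alike. The intervals hold counting error only, and no replicate stands behind either tissue. The quotient of the shoot ratio over the root ratio on RPM was 7.70 for miR169-I (56 and 348 reads in shoot, 11 and 21 in root), 5.02 for miR319, 3.52 for miR159 and 2.32 for miR1425. It was 0.0270 for miR398 (27 and 4 reads in shoot, 5 and 65 in root), 0.0382 for osa-miR12477 (185 and 14 in shoot, 63 and 295 in root), 0.200 for pred-A (590 and 167 in shoot, 38 and 127 in root) and 0.673 for miR166-II. On raw reads these quotients were 3.82, 2.49, 1.75 and 1.15 for the former and 0.0134, 0.0190, 0.0994 and 0.334 for the latter. miR398, osa-miR12477, pred-A and miR159 had ratios on opposite sides of 1 in shoot and root on both scales. For miR159 (216 and 226 reads in root) the root ratio was 0.594 on RPM but 0.990, close to 1, on raw reads.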

How the results depend on the processing

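Leaving out a replicate was not possible with 1 library per condition. No paired analysis was possible because each condition has a single library. On the scale set by the raw reads, 7 conserved sequences and 6 families were called lower, and the median log2 ratio was 0.69 over conserved and 0.15 over predicted sequences. With trimmed reads 5 families were called lower and the medians were 0.72 and 0.18, and with reads unaligned with NONCODE 4 families were called lower. With the sum of listed reads 1 conserved sequence, 1 predicted sequence and 1 family were called lower, and the medians were 1.51 and 0.98. With the median of ratios 7 conserved, 7 predicted sequences and 6 families were called lower, and the medians were 0.54 and 0. With TMM factors 9 conserved sequences and 6 families were called higher, 8 conserved, 8 predicted sequences and 7 families were called lower, and the medians were 0.44 and -0.091. At a 1.5-fold threshold 7 conserved sequences and 6 families were called lower. With at least 10 reads in both libraries 4 predicted sequences were called higher, 1 family lower, 15 predicted sequences were shared, and their median log2 ratio was 0.28. With a single genomic match 5 conserved and 2 predicted sequences were called higher and 2 conserved sequences lower. The scale alone sets the differences between scalings, and the filters leave fewer sequences.

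Over 54 named ratios and 6 scalings, 238 of 324 values kept their call and direction, 30 lost the call and 25 gained one. In 31, from 12 sequences that were not called on RPM, the ratio crossed 1. miR2864 and pred-Q both had 0.833 (raw reads), 0.850 (trimmed), 0.942 (NONCODE), 0.750 (median of ratios) and 0.704 (TMM). miR162-II and osa-miR12481 both had 0.952 (raw reads), 0.971 (trimmed), 0.857 (median of ratios) and 0.805 (TMM). pred-C had 0.947, 0.966, 0.853 and 0.801 under the same scalings. With the median of ratios and TMM, osa-miR12478 had 0.987 and 0.927 and pred-D 0.901 and 0.846, and with TMM miR166-III had 0.988. With the sum of listed reads miR156-II had 1.12, miR162-I 1.01, miR166-IV 1.27 and pred-I 1.04.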
